A study of Drosophila melanogaster with 4 samples.

Results

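The 74 sequences described here are the long reads of the fly head small RNA libraries: distinct read sequences of 24 to 27 nt with at least 100 reads summed over 4 libraries. They were chosen by those summed read counts, out of 519 distinct sequences of this length and 5550 distinct sequences of any length, and they held between 99.8% and 100% of all reads of 24 to 27 nt in each library. Total RNA was prepared with Trizol from the heads of wild-type male flies (genotype label 5905) aged 3 or 30 days, and libraries were made either from control-treated RNA or after oxidation and β-elimination, 1 for each of the 4 combinations of age and treatment. The groups have no replicates, so no test within an age or within a treatment could be made; a fit of both factors over the 4 libraries leaves 1 residual degree of freedom and is given beside the counts. Ages follow the titles, since the age characteristic of 2 of the 4 libraries (3 days oxidized and 30 days not oxidized) gives the other age.

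MicroRNAs are cut from hairpin precursors by Dicer-1 and loaded into an Argonaute protein, and the side of the hairpin they come from is called an arm. In flies, RNAs held by Ago2 receive a 2′-O-methyl group at the 3′ end from the methyltransferase Hen1, whereas most microRNAs are held by Ago1, stay unmethylated and can be shortened at the 3′ end by the exonuclease Nibbler. Periodate oxidizes an unmethylated 3′ end, which then undergoes β-elimination and no longer ligates to an adapter, so that an oxidized library is enriched for RNAs with a modified 3′ end. Reads longer than the usual 20 to 23 nt thus carry information on how far an arm was processed at its 3′ end.

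The sequences that carry most of the long reads, and those on which the comparisons within an arm turn, are shown first. They are printed as in the deposited tables, 5′ to 3′ with T for U, with bases 2 to 8 (the seed, which pairs with targets) in capitals. miR-263a lies on chromosome arm 2L and miR-284 and miR-317 on 3R in the BDGP6 annotation. The miR-263a-5p and miR-284-5p members differ almost only in where they end.
miR-263a-5p 24 nt: aATGGCACtggaagaattcacggg
miR-263a-5p 25 nt: aATGGCACtggaagaattcacgggg
miR-263a-5p 26 nt: aATGGCACtggaagaattcacggggt
miR-263a-5p 27 nt: aATGGCACtggaagaattcacggggta
miR-284-5p 24 nt: cCTGGAATtaagttgactgtgtag
miR-284-5p 25 nt: cCTGGAATtaagttgactgtgtagc
miR-284-5p 26 nt: cCTGGAATtaagttgactgtgtagcc
miR-284-5p 27 nt: cCTGGAATtaagttgactgtgtagcct
miR-284-5p 25 nt starting 1 nt downstream: cTGGAATTaagttgactgtgtagcc
miR-317-3p 24 nt: tGAACACAgctggtggtatccagt

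The other sequences shown come from named arms on 2L, 3L, 3R and X. The pairs of miR-305-5p, miR-285-5p and miR-993-5p are shown because members of 1 arm went opposite ways between treated and untreated libraries. The pair of miR-305-5p differs by 1 base in its end, and the other pairs by 1 base in both start and end. bantam-3p, miR-190-5p, miR-2b-3p, miR-125-5p, miR-10-5p and miR-13b-2-5p are shown for their level or their contrast with the shorter reads of the arm.
miR-305-5p 24 nt: aTTGTACTtcatcaggtgctctgg
miR-305-5p 25 nt: aTTGTACTtcatcaggtgctctggt
miR-285-5p 24 nt: aCTGAGATcgattggtgcatagat
miR-285-5p 24 nt starting 1 nt upstream: aACTGAGAtcgattggtgcataga
miR-993-5p 24 nt: tACCCTGTagttccgggcttttgt
miR-993-5p 24 nt starting 1 nt upstream: cTACCCTGtagttccgggcttttg
bantam-3p 24 nt: tGAGATCAttttgaaagctgattt
miR-190-5p 24 nt: aGATATGTttgatattcttggttg
miR-2b-3p 24 nt: tATCACAGccagctttgaggagcg
miR-125-5p 24 nt: tCCCTGAGaccctaacttgtgact
miR-10-5p 26 nt: aCCCTGTAgatccgaatttgttttat
miR-13b-2-5p 24 nt: gCGTCAAAatgactgtgagctatg

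The 74 members came from 44 of 481 arms. Of these arms, 37 with 62 members could be named from remembered mature sequences and 7 with 12 members could not, and the latter are called unnamed arms A to G. By length, 49 members had 24 nt, 15 had 25 nt, 6 had 26 nt and 4 had 27 nt. Compared with the most abundant shorter read of the same arm, 62 members began at the same base, 8 began upstream and 4 downstream, and 72 ran past its 3′ end. Every member had a read 1 nt shorter with the same start in the tables. Only 2 members, one of miR-2b-3p and one of miR-2a/2c-3p, had a variant that differed at the last base alone. The members held 47 different seeds, and in 6 arms they held more than 1.

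The tables of the untreated RNA held 16112748 (3 days) and 17345816 reads (30 days), those of the oxidized RNA 2091252 and 12105527. Levels are RPM, reads scaled to the same total in each library's table, so an arm that fills much of an oxidized library lowers every other. The 3-day oxidized library was the shallowest, where 3 counts (as many as an observed 0 is taken to allow) were worth 1.43 RPM, against at most 0.248 RPM elsewhere. Intervals are exact Clopper-Pearson 95% intervals, which cover counting error only. The label of head tissue was checked on 6 microRNAs known from brain and neurons, which summed to 40428 RPM at 3 days without oxidation. Of this sum miR-957-3p alone gave 33219 RPM, and the lowest were miR-137-3p (109 RPM) and miR-219-5p (121 RPM). In the same library the muscle microRNA miR-1-3p stood at 48.2 RPM and the 4 found members of a testis cluster at 1.18 RPM. Scaling by TMM, by median of ratios or by totals without miR-263a-5p and miR-284-5p added between 0.32 and 0.74 to every log2 oxidation ratio at 3 days, and between 0.90 and 1.28 at 30 days.

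Long reads made up 5.29% of the library at 3 days without oxidation, 37.4% after it, 4.53% at 30 days without oxidation and 51.1% after it. Both oxidized libraries lay above both others, by 7.07-fold at 3 days (log2 2.82, interval 2.82 to 2.83) and 11.3-fold at 30 days (log2 3.49, interval 3.49 to 3.50). Without the reads of miR-263a-5p and miR-284-5p the direction was the opposite: the remaining 64 members summed to 43349 and 9009 RPM at 3 days and to 28542 and 2489 RPM at 30 days, so that oxidized libraries were lower by 4.81-fold (3 days) and 11.5-fold (30 days). The reads of 20 to 23 nt of all other arms were lower by only 1.65-fold and 2.40-fold (log2 -0.719 and -1.265). Totals without miR-263a-5p and miR-284-5p add 0.739 and 1.277 to every log2 ratio, which leaves those reads with no drop. Those reads make up most of such totals, so that the lack of a drop is fixed by construction and is no result. On such totals, and so in effect relative to those reads, the 64 members were lower after oxidation, with log2 ratios of -1.53 (3 days) and -2.24 (30 days).

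One arm, miR-317-3p, supplied most of that remainder. Its long reads stood at 34759, 6253, 20353 and 923 RPM, in the order 3 days not oxidized, 3 days oxidized, 30 days not oxidized and 30 days oxidized, which is kept for all sets of 4 values from here on. Without miR-317-3p as well, the last 62 members summed to 8590, 2756, 8189 and 1567 RPM and were lower after oxidation by 3.12-fold (3 days) and 5.23-fold (30 days). The 3 arms together took 83.8%, 99.3%, 81.9% and 99.7% of the members' reads, and which of them led depended on the treatment. miR-317-3p held 65.7% and 44.9% of the members' reads in the libraries without oxidation, and miR-263a-5p held 73.0% and 81.7% in those with it.

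**Figure D1:**
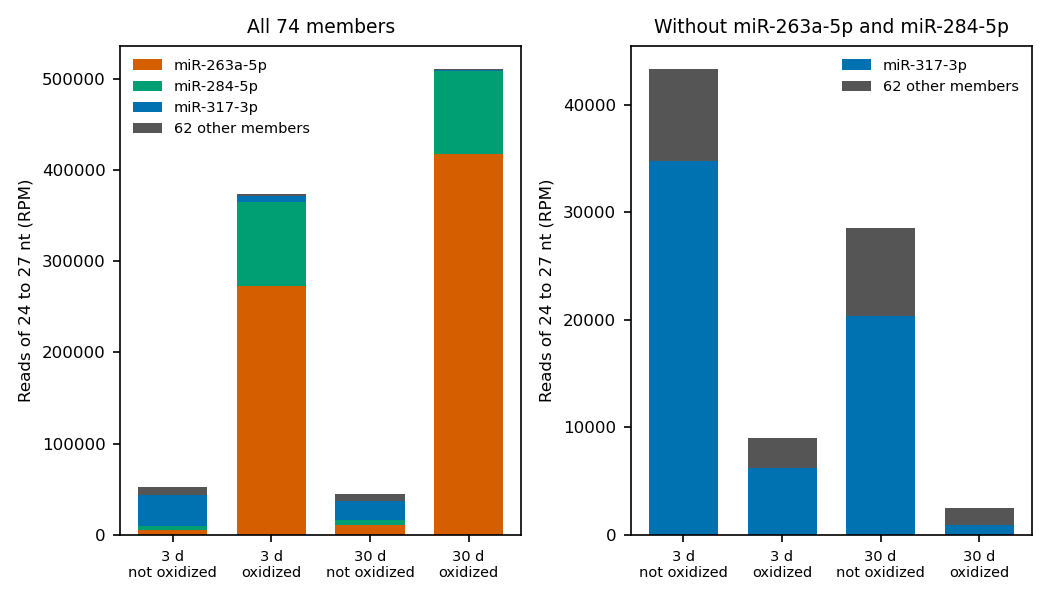
Summed level of the members in each of the 4 libraries (RPM, linear axes from 0, 1 library per bar), stacked by arm, with all 74 members on the left and the 64 members left after taking out miR-263a-5p and miR-284-5p on the right. The oxidized bars reach 373788 and 510678 RPM on the left, and on the right fall to 9009 and 2489 RPM, below both bars without oxidation.

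Read by single members, most were lower after oxidation. A change of 2-fold or more was called. At 3 days, 19 of the 73 members with a ratio were called higher and 45 lower, and of all sequences with at least 100 reads 34.3% and 41.9% were. With totals taken without miR-263a-5p and miR-284-5p, 28 in place of 45 were lower, for which no share of all sequences is given. At 30 days, 17 of 74 were higher and 52 lower, against 29.6% and 50.2% of all sequences. The median log2 ratio of the members was -1.35 at 3 days and -2.73 at 30 days, that of all sequences -0.39 and -1.02. Leaving out the 10 members of miR-263a-5p and miR-284-5p, which were all at least 2-fold higher at both ages, 9 of 63 members were higher at 3 days and 7 of 64 at 30 days. In all, 16 members were called higher and 45 lower at both ages, and 0 switched from one call to the other, where of the 1057 sequences of any length with a ratio at both ages 27.5% were higher at both, 39.7% lower at both and 0.757% switched. edgeR's quasi-likelihood fit with age as a term was chosen after seeing the data. It takes its error from differences in oxidation ratio between the ages, shared over the 1075 sequences and not each member's own alone. At a Benjamini-Hochberg adjusted p under 0.05 over 1075 sequences it called 17 of the 74 members higher after oxidation and 42 lower, against 25.8% and 35.3% of all sequences, and the 17 included all 10 of miR-263a-5p and miR-284-5p. Of the 74 members, 6 reached 100 reads only with the counts of the oxidized libraries, a choice that favours higher values there: the 24 nt read of miR-13b-2-5p, the 26 and 27 nt reads of miR-263a-5p, the 26 nt read of miR-10-5p, and 25 nt reads of miR-993-5p (starting 1 nt upstream) and miR-31a-5p. Among the other 68, 15 were higher at 3 days and 13 at 30 days, for which no share of all sequences under the same limit is given. The named reads of miR-13b-2-5p, miR-263a-5p and miR-10-5p were among the 17 that the fit called higher, so that choice favoured these calls too.

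**Figure D2:**
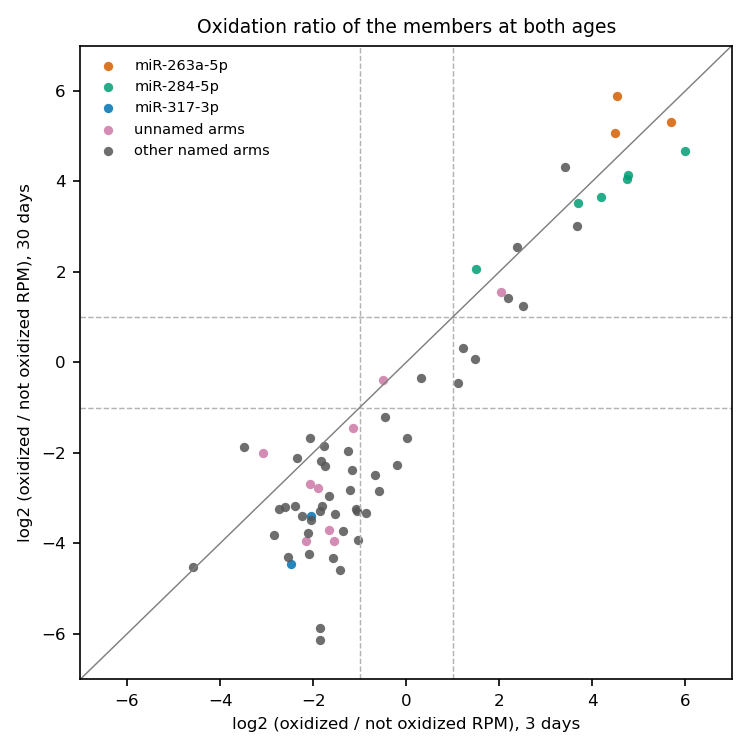
Log2 ratio of oxidized over not oxidized RPM for each member at 3 days (x axis) and 30 days (y axis), for the 66 members with a count in all 4 libraries; dashed lines mark 2-fold and the solid line equal ratios. Members of miR-263a-5p and miR-284-5p lie in the upper right corner, and most others lie in the lower left and under the diagonal (Pearson r 0.929, Spearman rho 0.746 over members, which share libraries and arms).

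miR-263a, which in flies protects sensory bristle organs from cell death, gave the most abundant long read. Its 24 nt read stood at 5252, 272616, 10465 and 416951 RPM. Both oxidized libraries were far above both others, by 51.9-fold at 3 days and 39.8-fold at 30 days (log2 5.70 and 5.32). The 25 nt read followed at 3.91, 87.5, 8.59 and 288 RPM, and the 26 nt read at 0.310, 7.17, 0.634 and 37.4 RPM. The 27 nt read had counts of 0, 11, 3 and 139. Each longer read was thus rarer than the one before it, while all 4 were more abundant in the oxidized libraries. The 26 and 27 nt reads reached the read minimum only with the counts of the oxidized libraries. Their higher values there were thus favoured by the choice of members. The 24 and 25 nt reads reached that minimum without those counts.

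Long reads of miR-263a-5p made up 61.5% of its arm without and 86.2% with oxidation at 3 days, and 68.3% and 82.6% at 30 days. Its shorter reads were also higher after oxidation, at 3295, 43684, 4870 and 87698 RPM, but by less, so that the log2 ratio of the long reads exceeded that of the shorter by 1.97 (interval 1.95 to 1.99) at 3 days and 1.15 (1.13 to 1.16) at 30 days. The ratio changed abruptly with length: at 22 nt it was -0.36 at 3 days and -0.14 at 30 days on the log2 scale, at 21 nt -1.76 and -1.96, and at 23 nt 4.51 and 4.69. The reads of 23 nt and longer thus went with the 24 nt read, and those of 21 and 22 nt did not.

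miR-284, which in flies is known for control of glutamate receptor levels at synapses, was the arm made most fully of long reads. They were 98.3%, 99.7%, 98.1% and 99.6% of its reads, divided mainly between 25 nt and 26 nt. The 25 nt read stood at 1773, 47507, 2801 and 46354 RPM and the 26 nt read at 2285, 41400, 3191 and 40025 RPM. The 26 nt read was the higher of the pair in both libraries without oxidation, and the 25 nt read in both with it. The 27 nt read went from 40.8 to 2593 RPM at 3 days, which at 63.5-fold was the highest of the oxidation ratios among the 38 members with a mean of at least 10 RPM and 50 reads in that comparison, and from 143 to 3615 RPM at 30 days. The 24 nt read, at 156, 438, 186 and 779 RPM, had the smallest ratios among the arm's members (log2 1.49 and 2.07). Reads of 20 to 22 nt had smaller ones still at 30 days, between 0.71 and 0.91.

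**Figure D3:**
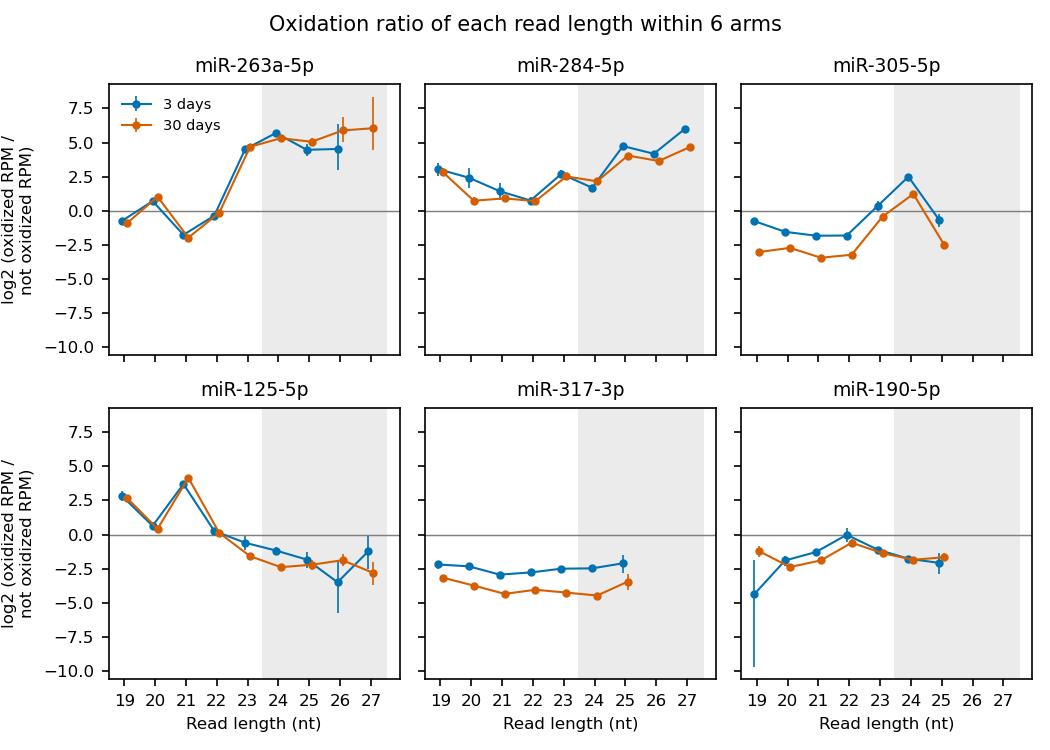
Log2 ratio of oxidized over not oxidized RPM (y axis) for all reads of each length from 19 to 27 nt (x axis) in 6 arms, at 3 and 30 days, for lengths with at least 20 reads in the 2 libraries; bars are counting intervals and the grey band marks 24 to 27 nt. miR-263a-5p steps up from 22 to 23 nt, miR-305-5p peaks at 24 nt, and miR-125-5p peaks at 21 nt and lies below 0 from 23 nt on.

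In miR-305-5p, whose gene is known in flies for its part in gut stem cells, long and shorter reads went opposite ways. Its 24 nt read stood at 66.5, 377, 81.1 and 191 RPM, 5.66-fold higher after oxidation at 3 days and 2.36-fold higher at 30 days. Its shorter reads stood at 4040, 1318, 3688 and 458 RPM. Long reads were 2.34% and 3.29% of the arm without oxidation and 23.1% and 30.3% with it. The 25 nt read, 1 base longer, did not follow the 24 nt read: it stood at 30.4, 19.1, 44.4 and 7.93 RPM (log2 -0.67 and -2.49). Nor did the 21 nt read length, the most abundant of the arm, with log2 ratios of -1.82 and -3.43.

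miR-125-5p, a member of the let-7 complex that marks the adult stage, showed the reverse order. Its 24, 25, 26 and 27 nt members were all lower after oxidation, by 2.24-fold and 5.22-fold for the 24 nt read (151, 67.4, 217 and 41.6 RPM). Its shorter reads were higher, at 984, 3737, 921 and 6612 RPM, led by those of 21 nt with log2 ratios of 3.70 and 4.15. Long reads were 18.2% and 22.9% of the arm without oxidation and 2.21% and 0.812% with it, which was the lowest long-minus-shorter difference among arms with a long mean of at least 10 RPM at both ages (-3.30 and -5.18).

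Over the arms with enough reads to compare (at least 50 long reads in the 2 libraries and 100 reads in each), 15 of 35 had a higher long share after oxidation at 3 days and 11 of 39 at 30 days. Over every arm of the tables with 50 or more reads of 24 to 27 nt, 45.7% of 35 and 30.2% of 43 did. Those are largely the same arms, so their shares are no independent background. Counting intervals lay above 0 for 9 arms and below 0 for 9 at 3 days, and above for 9 and below for 22 at 30 days. Of the 33 arms compared at both ages, 7 had a higher share at both, 18 a lower share at both, and 8 changed direction. The 7 were miR-263a-5p, miR-284-5p, miR-305-5p, miR-993-5p, miR-1010-3p, miR-184-3p and unnamed arm A, which begins tagccaa. In unnamed arm A this came with lower levels of long reads (1126, 352, 1231 and 261 RPM), because its shorter reads were lower by more. A share within an arm does not depend on the scaling between libraries. Long and shorter reads of an arm had related oxidation ratios, with Pearson r 0.719 at 3 days over 34 arms and 0.748 at 30 days over 39, which share their libraries.

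**Figure D4:**
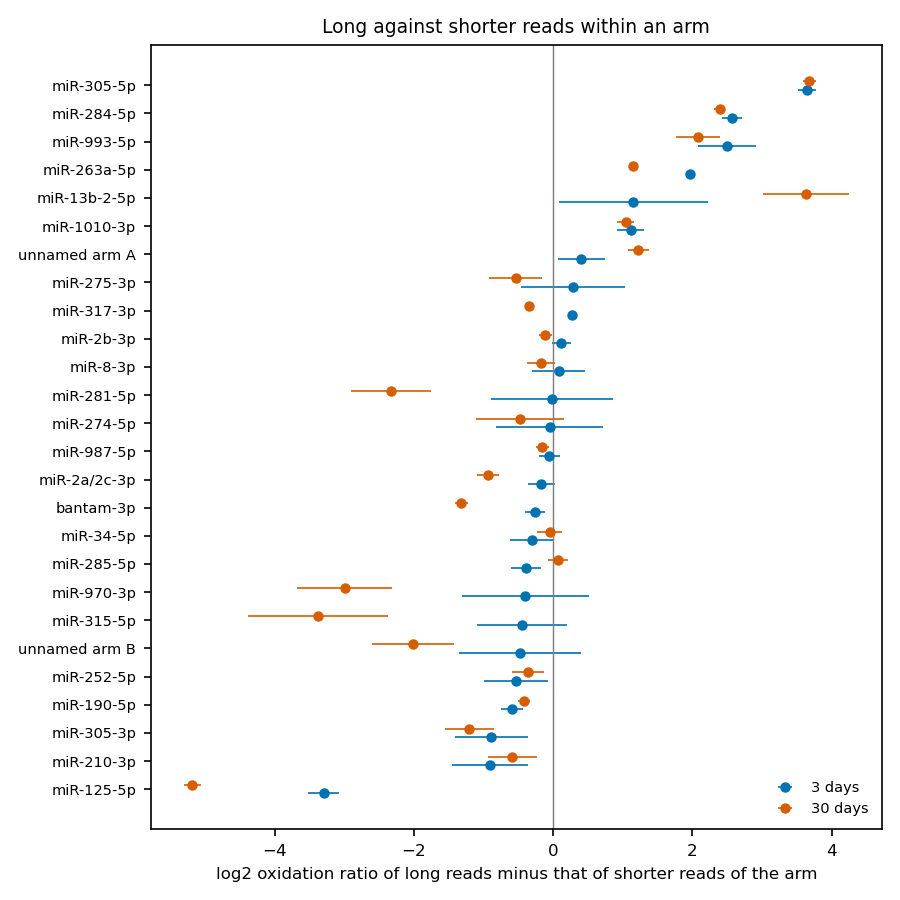
For the 26 arms whose long reads average at least 10 RPM, the log2 oxidation ratio of the long reads minus that of the shorter reads of the same arm (x axis), at 3 and 30 days; bars are counting intervals, and values right of 0 mean a higher long share after oxidation. miR-305-5p stands highest at both ages (3.65 and 3.68) and miR-125-5p lowest (-3.30 and -5.18).

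Most abundant arms whose long reads were lower after oxidation differed less in long share. In miR-317-3p oxidation left the 24 nt read lower by 5.56-fold (3 days) and 22.1-fold (30 days), and the long share was 34.2%, 38.6%, 24.9% and 20.8%. In miR-987-5p the share was 57.4%, 56.5%, 53.2% and 50.6%, and in miR-2b-3p, of the family that targets pro-apoptotic genes in flies, 15.5%, 16.7%, 13.6% and 12.7%. For miR-190-5p it went from 71.4% to 62.4% at 3 days and from 64.5% to 57.7% at 30 days. bantam-3p, a microRNA that promotes growth in flies, had a 24 nt read at 1094, 189, 1790 and 91.0 RPM. That read was only 1.12%, 0.933%, 2.11% and 0.860% of the arm, and at 30 days its share was lower after oxidation (log2 difference -1.32).

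Among members with a mean of at least 10 RPM and 50 reads, the largest drop at 30 days was that of the 24 nt read of miR-315-5p, which stood at 34.8, 9.56, 38.6 and 0.661 RPM. At 3 days it was 3.63-fold lower after oxidation and at 30 days 58.4-fold, and its shorter reads (log2 -1.41 and -2.50) differed less. The 30-day ratio rests on 8 reads in the oxidized library (log2 interval -7.09 to -4.88). miR-281-5p, at 14.2, 5.26, 49.5 and 2.07 RPM, and miR-9b-5p, at 11.5, 0.478, 20.9 and 0.909 RPM, were next at 30 days. For miR-9b-5p the oxidized values are 1 read at 3 days and 11 reads at 30 days. At 3 days the lowest ratios were those of the 25 nt read of miR-987-5p (log2 -2.85) and the 24 nt read of miR-210-3p (-2.73).

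Other members at least 2-fold higher after oxidation at both ages were few and low. The 24 nt read of unnamed arm E had counts of 47, 25, 54 and 110 (log2 2.04 and 1.55). The 24 nt read of miR-252-5p stood at 5.96, 31.1, 10.9 and 64.1 RPM, and its shorter reads, at 2076, 15646, 2328 and 17528 RPM, had slightly higher ratios. That of miR-13b-2-5p, the strand opposite miR-13b-3p, had counts of 16, 22, 31 and 434, and long reads went from 17.4% of its arm to 31.9% at 3 days and from 17.8% to 72.8% at 30 days. At 3 days this arm fell short of the 100 reads per library asked of the arms compared, with 76 and 47 shorter reads. Its 3-day intervals overlapped (10.3% to 26.7% and 21.2% to 44.2%). The 26 nt read of miR-10-5p, from the Hox cluster, was called higher at 30 days only. It had counts of 2, 0, 10 and 167 and so no ratio at 3 days. Both of these reads reached 100 reads only through the oxidized libraries, so that a high value there was favoured by the choice of members.

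In some arms members with different starts had different ratios. Being of equal length, the 24 nt reads compared within miR-285-5p and within miR-993-5p also differed by 1 base in their end. In miR-285-5p, the 24 nt read with the start of the main shorter read stood at 7.70, 98.0, 9.45 and 76.7 RPM (log2 3.67 and 3.02), and the 24 nt read that began 1 nt upstream at 29.8, 16.3, 26.7 and 2.64 RPM (-0.87 and -3.34). In miR-993-5p it was the upstream read that was higher after oxidation, at 7.76, 35.4, 5.07 and 13.5 RPM (2.19 and 1.42), while the other 24 nt read had counts of 73, 0, 67 and 1. With reads of all lengths, the upstream start made up 31.9% and 28.5% of miR-993-5p without oxidation and 75.2% and 65.4% with it. miR-193-5p, which has 1 member, at 74, 0, 44 and 0 reads, also varied by start: reads beginning 1 nt downstream of the main one were 1.23% and 2.06% of the arm without oxidation and 56.7% and 78.9% with it, but none of them was longer than 23 nt. The miR-263a-5p members all shared 1 start. Other arms had closer values: with reads of all lengths, miR-284-5p had log2 ratios of 4.41 and 3.82 from the main start and 4.13 and 3.76 from 1 nt downstream, and miR-2a/2c-3p had -1.89 and -2.75 from the main start and -1.93 and -2.63 from 2 nt upstream.

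**Figure D5:**
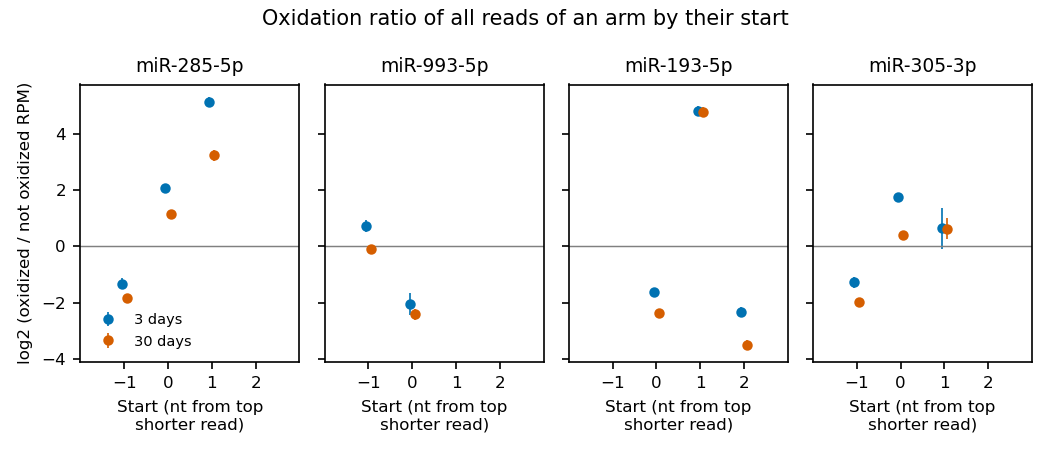
Log2 ratio of oxidized over not oxidized RPM (y axis) for reads of all lengths, grouped by their start in nt from the start of the most abundant shorter read (x axis), in 4 arms with members, at 3 and 30 days; starts with at least 100 reads over the 4 libraries are drawn with counting intervals. miR-193-5p reads from position 1 lie at 4.80 and 4.77 while those from 0 and 2 lie below 0, and miR-285-5p reads from -1 lie below 0 while the others lie above it.

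By first base, 40 members began with T, 18 with A, 13 with C and 3 with G. Of the 40 with T, 1 was at least 2-fold higher after oxidation at 3 days and 34 lower, and 0 were higher and 37 lower at 30 days. Of all sequences of at least 100 reads that began with T, the 3-day libraries had 21.8% higher and 54.3% lower, and those of 30 days 17.1% and 64.7%. Of the 13 with C, 10 were higher and 2 lower at 3 days, and 8 higher and 3 lower at 30 days; of all sequences that began with C, 55.5% and 22.3% were at 3 days, and 49.6% and 27.2% at 30 days. The members with C are no independent set, since 6 of them are miR-284-5p reads. T began 46.1% and C 21.6% of all sequences with at least 100 reads.

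Age moved the long reads less than oxidation did, and its direction in the sum depended on the treatment. Without oxidation, the long reads were 1.17-fold lower at 30 than at 3 days (log2 -0.22; 0.46 once miR-317-3p was left out), and with it 1.37-fold higher (0.45). Without miR-263a-5p and miR-284-5p they were 1.52-fold lower without oxidation and 3.62-fold lower with it. Without miR-317-3p as well, these became 1.05-fold and 1.76-fold lower. miR-263a-5p long reads were 1.99-fold and 1.53-fold higher at 30 days, without and with oxidation, and those of miR-284-5p 1.49-fold higher and 1.01-fold lower. The last direction turned with the scaling: the other scalings added between 0.55 and 0.63 to every log2 age ratio with oxidation (between -0.068 and 0.018 without), and the 25 nt read of miR-284-5p went from -0.035 to between 0.51 and 0.59. Both comparisons of age use different libraries, but each shares its libraries with the comparisons of treatment.

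By member, 9 of 73 were called higher and 1 (of unnamed arm F) lower at 30 days without oxidation, against 28.9% and 4.84% of all sequences. With oxidation, 7 of 69 were higher and 34 lower, against 14.8% and 31.3%. TMM scaling gave 13 and 17 in place of these, for which no share of all sequences is given. The edgeR fit with oxidation as a term called 0 members higher and 0 lower with age, against 0.279% and 0.558% of all sequences. At an unadjusted p under 0.05 it gave 3 and 2 members. With TMM scaling it called 4 and 5 of the 74 members, against 6.88% and 7.63% of all sequences. Without oxidation, the highest age ratios among members with a mean of at least 10 RPM were those of the 27 nt read of miR-284-5p (log2 1.80), miR-281-5p (1.80; 14.2 and 49.5 RPM without oxidation) and miR-275-3p (1.68; 11.5 and 36.7 RPM). The lowest were both miR-317-3p members, at -0.79 and -0.77. With oxidation, the 26 nt (2.38) and 25 nt (1.72) reads of miR-263a-5p and the 24 nt read of miR-13b-2-5p (1.77) were highest. The 24 nt read of miR-317-3p (-2.76) was lowest. The 26 nt read of miR-263a-5p and the miR-13b-2-5p read reached the read minimum only through the oxidized libraries. Most of their reads came from the oxidized library of 30 days (453 and 434 reads), so the choice of members favoured their high age ratios. When the libraries without oxidation alone had to reach that minimum, 3 members were higher with age after oxidation and 32 lower. No share of all sequences is given for that setting.

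Within arms, 25 of 41 had a higher long share at 30 than at 3 days without oxidation and 7 of 23 with it. Of every arm with 50 or more such reads (45 and 24 arms, largely the same ones), 60% and 33.3% did. miR-34-5p, whose loss shortens life and brings brain degeneration in flies and whose 3′ end Nibbler trims, was among those with a lower share. Its long reads stood at 125, 42.1, 112 and 26.1 RPM and its shorter reads at 2152, 896, 5825 and 1406 RPM, so that the long share went from 5.50% at 3 days to 1.89% at 30 days without oxidation, a log2 difference of -1.60. The shorter reads were the ones that differed with age: those of 18 nt had a log2 age ratio of 3.18 without oxidation, those of 21 nt 1.07 and those of 24 nt -0.17. In miR-1010-3p, too, the long share without oxidation was lower at 30 days, at 6.60% against 13.1%. In bantam-3p it was higher, at 2.11% against 1.12%.

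Of 12 arms on a list recalled as trimmed by Nibbler, of which miR-34-5p is the only one recalled with certainty, all were found, 9 had a member and 3 had their most abundant read at 24 nt or longer. Of the 48 mature arms of 24 nt or longer among 485 in the BDGP6 annotation, 15 were looked for by name and found. Of those, 8 had a member, and in 5 the most abundant read itself had 24 nt or more.

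The limits that chose the members cut through continuous distributions. Just inside the limit of 100 reads were members of miR-31a-5p and miR-993-5p with 113, 104 and 102 reads, and just outside it reads of bantam-3p and miR-284-5p with 98 each and one of an unnamed arm with 97. The most abundant read of 23 nt was that of miR-8-3p with 4721936 reads, and the most abundant of 28 nt that of miR-263a-5p with 65.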

How the data were processed

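Small RNA of fly heads was sequenced with the TruSeq small RNA kit on the HiSeq2000, per the labels' protocols. CASAVA 1.8.2, Bowtie and the build dm3 are named, with no role, in the submitters' processing notes; how adapters were removed is not given there. The authors deposited 1 table of raw counts per library, each row a sequence and its count. Sequences listed again (85 to 195 per library, 0 with unequal counts) were counted once, and 0 other columns were present.

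Sequences overlapping without mismatch by at least 15 nt within 34 nt were grouped into arms. Arms sharing 20 identical nt were merged, which pooled the reads of miR-2a and miR-2c. Sequences that matched more than 1 arm (21, at most 0.00405% of reads) were left out of arm sums. Names come from remembered mature sequences, as no table of microRNA sequences was used here. The most abundant read was within 1 nt of the BDGP6 annotated length in 29 of 37 named member arms. BDGP6 gave only chromosome arms and lengths.

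Ratios are of RPM. A ratio against a count of 0 used 3 counts and is a bound, and none was taken with both libraries under it. With 1 library per group, members are called by 2-fold size, not by a test; an edgeR quasi-likelihood fit of age and oxidation over the 4 libraries, on the counts with library totals as sizes, was added after seeing the data and has 1 residual degree of freedom. Members named are the 12 most abundant, the 5 highest and 5 lowest of each comparison (mean of 10 RPM or more, 50 reads or more), arms with long reads averaging 10 RPM, arms annotated at 24 nt or longer, members at the limits and the recalled trimming list; miR-10-5p, miR-193-5p and the starts of reads were added after their values were seen. The members and lists were chosen with earlier results of these data known. Python 3.11.15, numpy 2.4.6, scipy 1.17.1 and matplotlib 3.10.9 were used, with edgeR 4.0.16 (the fit and TMM) and DESeq2 1.42.0 (median of ratios, for scaling only). Ratio code and the fit were tested on simulated data.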

Additional observations from a re-analysis of the deposited data

Results flagged for a closer look

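Reads longer than 27 nt, which none of the comparisons use, were most frequent in the 30-day oxidized library, at 13.3 RPM against 4.44 RPM in the library of that age without oxidation; the 3-day libraries stood at 5.74 RPM with and 5.03 RPM without oxidation. In reads, these were 81 and 12 at 3 days and 77 and 161 at 30 days, without and with treatment. The 28 nt read of miR-263a-5p made up 60 of the 161 and the 28 nt read of miR-10-5p 17, against 3 and 1 in the 30-day library without oxidation.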

How the results depend on the processing

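No paired analysis was possible because the labels give no replicate numbers and each group holds 1 library. With age as a block, edgeR called 17 members higher and 42 lower after oxidation, against 25.8% and 35.3% of all sequences. With TMM scaling it called 17 and 41, against 32.8% and 33.9%. With oxidation as a block, TMM scaling gave 4 members higher and 5 lower with age in place of 0 and 0. The shares of all sequences were 6.88% and 7.63% in place of 0.279% and 0.558%. With 1 library per group, replicate spread cannot be told apart from age or treatment, counting intervals cover depth only, and names of arms rest on recalled sequences. The 3-day oxidized library was the shallowest, with 6 members at 0 counts.

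The log2 oxidation ratio of the summed long reads at 3 days was 3.15 with TMM scaling, 3.19 with median of ratios, 3.56 with totals without miR-263a-5p and miR-284-5p, 4.15 with reads of 25 to 27 nt only and 4.34 without miR-317-3p; without the 2 arms it was -1.94, -1.90, -1.53, -1.61 and -1.64 in that order. At 30 days these were 4.51, 4.39, 4.77, 3.65 and 4.35, and without the 2 arms -2.50, -2.62, -2.24, -2.06 and -2.39, with -3.48 when no read minimum was set. All kept their direction.

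The age ratio without oxidation was -0.29, -0.20, -0.21, 0.47 and 0.46 in the same order, so reads of 25 to 27 nt and the sum without miR-317-3p were higher at 30 days where the full sum was lower; without the 2 arms it was -0.67, -0.58, -0.59, -0.042 and -0.069. With oxidation it was 1.08, 0.997, 1.0005, -0.022 and 0.47, and without the 2 arms -1.23, -1.31, -1.31, -0.49 and -0.82, with -1.82 when no read minimum was set.

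Counts of members at least 2-fold higher or lower depended on how many sequences entered. Shares of all sequences are not given at these settings, so the counts show only how the calls move. With a minimum of 500 reads, 12 were higher and 28 lower after oxidation at 3 days and 32 lower at 30 days. For age, that minimum gave 5 higher and 0 lower without oxidation, and 4 and 18 with it. With a minimum of 50 reads, 27 were higher after oxidation at 30 days, and 14 were higher and 3 lower with age without oxidation. Among members of 25 to 27 nt, 8 were higher and 13 lower after oxidation at 3 days, 8 and 15 at 30 days, 4 and 0 with age without oxidation, and 9 lower with age after oxidation. At 3-fold, age without oxidation gave 4 and 0, and age with it 17 lower.

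Scaling changed other counts, again without a share of all sequences at the same setting. With totals without the 2 arms, 28 members were lower after oxidation at 3 days. For age with oxidation, 13 were higher with TMM and 12 with the other scalings, and 17 were lower with each of the 3. Where 100 reads had to come from the libraries without oxidation, 3 were higher. With at least 200 long reads, 3 arms had a higher long share with age after oxidation. Ratios of single named members kept their direction in 106, 108 and 107 cases with the 3 scalings and changed it in 6, 4 and 5. The scalings of single members, the edgeR fit, leaving out miR-317-3p and the limit on libraries without oxidation were chosen after seeing the data. The cause of these changes was not tested, except that settings with fewer sequences give smaller counts by construction.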
